A study of Mus musculus with 2 samples.

Results

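Neurexins, neuroligins and latrophilins are cell adhesion proteins of synapses, and the chromatin around 8 of their genes was described in mouse cerebellum: Nrxn2, Nrxn3, Nlgn1, Nlgn2, Nlgn3, Adgrl1, Adgrl2 and Adgrl3. The genes were chosen by name, 8 of 21938 coding genes in the annotation, and each was taken with 50 kb on either side. The assay was DNase-seq, in which nuclei are cut with DNase I so that cut sites collect in open chromatin. Both libraries came from whole cerebellum of male B6CASTF1/J mice (the F1 cross of B6 with CAST), 8 to 10 months old, with no treatment named in the labels, and each was made from a pool of 2 biosamples. The labels number them as biological replicates 1 and 2 without saying if an animal went into both pools, so part of the spread between them may be technical. There is a single group, so values are given for each library beside the same value over all coding genes, and no test between conditions was possible.

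Neurexins sit in the presynaptic membrane and bind partners across the cleft. Each neurexin gene makes a long alpha form from an upstream start and a short beta form from a start inside the gene. Neuroligins are their best known postsynaptic partners: Nlgn1 acts mainly at excitatory synapses, Nlgn2 at inhibitory synapses, and Nlgn3, on the X chromosome, at both. Latrophilins, encoded by the Adgrl genes, are adhesion G protein-coupled receptors that bind teneurins and FLRT proteins. In cerebellum, neurexins also bind cerebellin released by granule cells, which links parallel fibres to Purkinje cells.

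Replicates 1 and 2 had 61776 and 71141 peaks in the stricter of the lists deposited for each, with 314116 and 320832 footprints, short stretches protected from cutting. Signal, the authors' value for a peak, had medians of 1.40 (replicate 1) and 0.961 (replicate 2), and shared peaks had a median log2 ratio of replicate 1 over replicate 2 of 0.41, so ratios are read against that value. No read numbers are stated in the labels or files used. Signal moved in whole steps, 196 for the median peak of replicate 1 and 152 for that of replicate 2. If 1 step is 1 cut, the counting error of such a peak was 7.14% and 8.11%, a lower limit. As a check of the tissue, 8 of 8 granule cell markers had a peak at a start in both libraries, as did 3 of 5 Purkinje cell markers (not Pcp2 or Car8) and 2 of 6 glial markers. Of 4 markers of other organs, the muscle gene Ckm had one, with a signal of 2.23 and 1.35. In whole tissue, a site open in few cells and a site less open in many cells cannot be told apart.

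A start peak was found for 7 of the 8 genes in both libraries, all but Adgrl2. Among all coding genes, 58.4% had a start peak in replicate 1, 57.2% in replicate 2 and 55.9% in both. A start peak is one that overlaps the 1 kb on either side of an annotated transcript start. Among coding genes of at least 100 kb, closer to several of these genes in length, 78.8% and 76.2% had one, so a count of 7 lies near what long genes show. All 8 genes had a footprint within 1 kb of a start in both libraries, against 58.5% of coding genes. That share is not matched for gene length or for the number of annotated starts. At Adgrl2 there were 3 footprints in replicate 1 and 2 in replicate 2, near starts of non-coding transcripts with no stricter peak. Start signal, taken from the strongest start peak, had a median over the 7 genes of 4.92 in replicate 1 and 4.68 in replicate 2. Over all coding genes with a start peak it was 4.83 and 3.38. Among those of at least 100 kb it was 3.355 and 2.383, a length that Nlgn2, Nlgn3 and Adgrl1 do not reach.

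Starts within 1 kb of each other were grouped, which gave 45 start groups over the 8 genes, numbered from the 5′ end of each gene. A peak in both libraries was present at 11 groups, 3 more had a peak in replicate 2 alone, and 31 had none in either library. At 10 of the 11 the peaks of the libraries overlapped each other, and at the 5′-most group of Nlgn1 they did not. In Nrxn2, Nlgn1, Nlgn2 and Adgrl3 the strongest start peak lay upstream of the start of the transcript with the longest coding sequence, at a start whose transcripts reach the same first coding base. In Nlgn1 and Nlgn2 a transcript from the 5′-most start has a coding sequence of equal length, and the start called longest-CDS here is the downstream one.

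**Figure D1:**
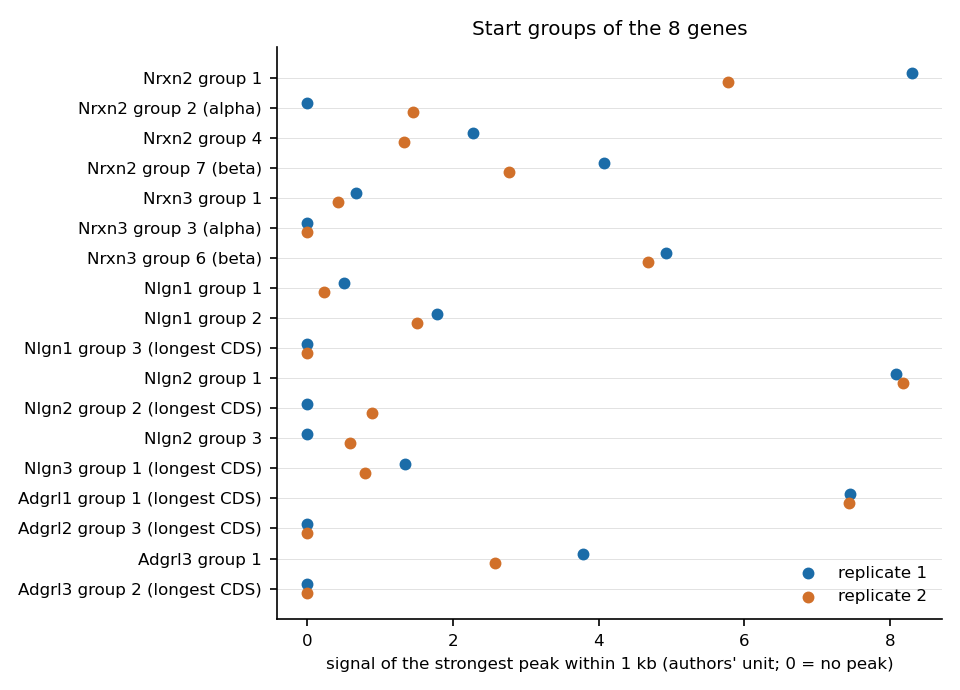
Signal of the strongest peak within 1 kb of each start group (horizontal axis, authors' unit, 0 where no peak was called) for every group with a peak in at least 1 library and for the alpha, beta or longest coding sequence (CDS) starts; each point is 1 library. Groups 1 of Nrxn2, Nlgn2 and Adgrl1 lie above 5 in both libraries. The longest-CDS starts of Nlgn1, Adgrl2 and Adgrl3 and the Nrxn3 group labelled alpha lie at 0 in both.

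Nrxn2 was open in both libraries at its upstream alpha start and at its beta start. The upstream start group, at position 6418731 to 6418765 of chromosome 19, gave a signal of 8.29 in replicate 1 and 5.77 in replicate 2, above 95.4% and 95.0% of all peaks of the library. Coding transcripts from there begin their coding sequence at 6428049, the same base as the longest coding transcript, whose own start group lies 9.19 kb downstream and had no peak in replicate 1 and a signal of 1.46 in replicate 2. By the first coding base both groups are alpha starts. The upstream one carried the strong peak, which also lies at starts of Gm14965 on the opposite strand. Of the 250 bases before the downstream group, 118 lie in annotated Nrxn2 exons, after a pyrimidine-rich run and AG. Whether transcription begins at the downstream group was not tested. The beta start group, at 6497671 to 6497835 and 78.9 kb from the 5′ end, had a signal of 4.08 and 2.78, above 83.8% and 83.6% of peaks. The first transcript of that group is non-coding, and the coding beta transcripts start at 6497828 and 6497835. The signal of the group was lower than that of the upstream alpha start in both libraries. A start 35.8 kb from the 5′ end, with 1 non-coding transcript, had 2.28 in replicate 1 and 1.33 in replicate 2. Those peaks reach within 1 kb of the start only by an edge. Their centres lie 1010 and 1023 bp from it, so they are also counted as distal peaks below.

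In Nrxn3 the strongest start peak lay at the beta start instead. The beta start, at position 89812483 of chromosome 12 and 1090 kb into a gene of 1612 kb, had a signal of 4.92 in replicate 1 and 4.68 in replicate 2, above 87.5% and 92.4% of peaks. The alpha start of the longest coding transcript, at 88794504, had no peak in either list and no footprint within 1 kb in either library. It also had no base there with a cut-rate false discovery rate (FDR) under 0.05. The same held for the coding starts near 88953390 and at 89193106. The bases just before 88794504 end in a pyrimidine-rich run and AG, as before an internal exon. Whether transcription begins at 88794504 was not tested. The only other open start lies at the 5′ end, at 88722876 to 88723109, where no transcript is annotated as coding. Its signal of 0.67 in replicate 1 and 0.43 in replicate 2 exceeded only 20.6% and 17.1% of peaks. A transcript from that group, annotated as subject to nonsense-mediated decay, begins its coding sequence at the same base as the alpha transcript, 88795185. By the first coding base, as used for Nrxn2, that group is an alpha start too, with a weak peak in both libraries.

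The 250 bases upstream of these neurexin starts (GRCm38, plus strand) are shown because the genes differ in which start carried the strongest peak. Capitals mark bases inside a footprint of both libraries.
Nrxn2 upstream alpha start, chr19:6418481-6418730: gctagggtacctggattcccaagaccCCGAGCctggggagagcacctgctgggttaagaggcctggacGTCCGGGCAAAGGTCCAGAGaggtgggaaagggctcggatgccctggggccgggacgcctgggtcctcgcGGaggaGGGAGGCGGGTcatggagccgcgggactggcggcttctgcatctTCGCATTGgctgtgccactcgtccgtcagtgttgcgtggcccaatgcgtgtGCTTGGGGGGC
Nrxn2 first (non-coding) start of the beta group, chr19:6497421-6497670: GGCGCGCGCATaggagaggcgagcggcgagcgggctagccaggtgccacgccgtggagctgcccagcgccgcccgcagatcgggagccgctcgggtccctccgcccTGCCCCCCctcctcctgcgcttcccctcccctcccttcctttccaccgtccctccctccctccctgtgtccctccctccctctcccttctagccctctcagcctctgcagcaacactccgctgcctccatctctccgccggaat
Nrxn3 alpha start, chr12:88794254-88794503: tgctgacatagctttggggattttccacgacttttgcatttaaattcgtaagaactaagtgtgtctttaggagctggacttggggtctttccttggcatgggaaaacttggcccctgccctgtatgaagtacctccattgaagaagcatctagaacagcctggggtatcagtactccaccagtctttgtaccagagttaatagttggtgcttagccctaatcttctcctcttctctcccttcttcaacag
Nrxn3 beta start, chr12:89812233-89812482: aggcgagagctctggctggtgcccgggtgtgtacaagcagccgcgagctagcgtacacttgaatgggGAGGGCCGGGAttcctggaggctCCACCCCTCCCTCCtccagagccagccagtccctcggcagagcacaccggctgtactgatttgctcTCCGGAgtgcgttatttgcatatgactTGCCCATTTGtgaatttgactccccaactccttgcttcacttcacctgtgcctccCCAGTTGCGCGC

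Footprints of both libraries covered 58 bases at the Nrxn2 upstream alpha start and 19 before the first start of its beta group. In Nrxn3 they covered 53 at the beta start and 0 at the alpha start printed, 88794504. At the 5′-most Nrxn3 group, also an alpha start by its first coding base, footprints covered 7 bases in each library and 0 in both. In the 250 bases before the first coding start of the Nrxn2 beta group, footprints of both libraries covered 0 bases. The ratio of observed to expected CpG was taken over 250 bases before to 50 after the start. It was 0.69 at the Nrxn2 upstream start and 0.77 at the first start of its beta group. In Nrxn3 it was 0.59 at the beta start, 0.12 at 88794504 and 0.25 at the 5′-most group.

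**Figure D2:**
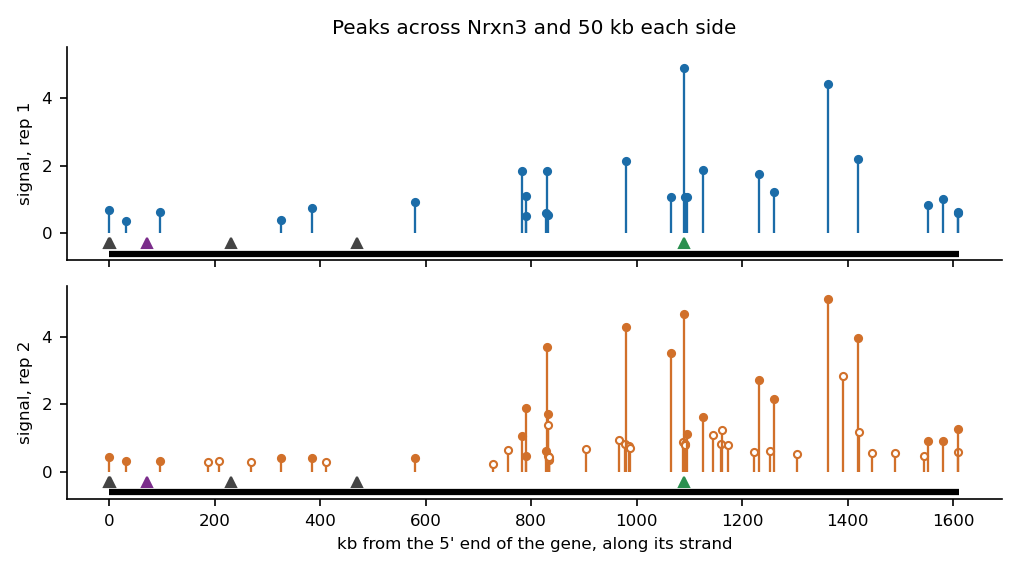
Signal of each peak (vertical axis, authors' unit) against distance from the 5′ end of Nrxn3 in kb, replicate 1 above and replicate 2 below; filled points are shared between libraries, open points are in 1 library alone, triangles mark start groups (violet alpha, green beta) and the black bar is the gene. The peaks with a signal above 4 lie at the beta start and beyond in replicate 1, and in replicate 2 from 980 kb onward.

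Within the Nrxn3 body, distal peaks (centred more than 1 kb from every annotated start) were denser beyond the beta start than over all before it. From 1 kb after it to the gene end there were 1.92 distal peaks per 100 kb in replicate 1 and 4.603 in replicate 2, against 1.19 and 2.76 from the gene start to 1 kb before it. Their median signal was 1.15 and 0.90 beyond the beta start, against 0.73 and 0.54 before it. The part before the beta start was uneven. Peaks were sparse in its first part and lay closer together from 89505221 to 89788949 in replicate 1. In replicate 2 the closer run went from 89479181 to 89810285. The values therefore do not place the change in density at the beta start. The strongest shared distal peak of the window lay in an intron at chr12:90085941-90086160, 1363 kb from the 5′ end, with a signal of 4.43 in replicate 1 and 5.12 in replicate 2 (mean 4.78 ± 0.49, SD, n = 2). It is printed because it was close to the beta start in signal, and a footprint of both libraries there covers the letters CAGATG, the E-box bound by NEUROD1 and ATOH1.
Nrxn3 strongest shared distal peak, chr12:90085941-90086160: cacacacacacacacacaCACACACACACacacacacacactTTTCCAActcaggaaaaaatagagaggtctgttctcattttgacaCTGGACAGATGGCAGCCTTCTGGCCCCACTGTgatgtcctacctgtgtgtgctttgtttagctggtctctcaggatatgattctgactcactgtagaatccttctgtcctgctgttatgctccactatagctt

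The E-box letters CAGATG (either strand, in footprints widened by 5 bp) occurred in 9 of 131 Nrxn3 footprints in replicate 1 and 15 of 212 in replicate 2, which is 6.87% and 7.08%, against 2.39% and 2.85% of all footprints. Over all 8 genes the share was 2.64% and 3.44%. The footprints compared were not matched for distance from starts or for base content. The letters GGGCGG, for one, occurred in 0% and 0.472% of Nrxn3 footprints, against 8.11% and 6.8% of all footprints. This motif was singled out among 14 after its values were seen, and letters in a footprint do not name the bound protein.

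The libraries differed across Nrxn3. There were 26 peaks in the body in replicate 1 and 56 in replicate 2, and 25 of each were shared. Of the 13 shared distal peaks before the beta start, 7 had a lower signal in replicate 1, as did 7 of the 9 after it, against 29.9% of the 25651 shared distal peaks of the genome. The peak at 89703041 had 2.14 in replicate 1 and a log2 ratio of -1.005, and the peak at 89788949 had 1.078 and -1.72. In the other direction, the peak at 89302101 had 0.91 and a log2 ratio of 1.14, and the peak at 88818936 had 0.61 and 0.90. A difference of 10 or more peaks between libraries was present in the bodies of 1.33% of coding genes, and among the 8 genes in Nrxn3 and Nlgn2. That share is not matched for gene length. Nrxn3, at 1612 kb, can hold more peaks than most genes, and a share among genes of like length was not computed. What the pools differed in was not tested.

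**Figure D3:**
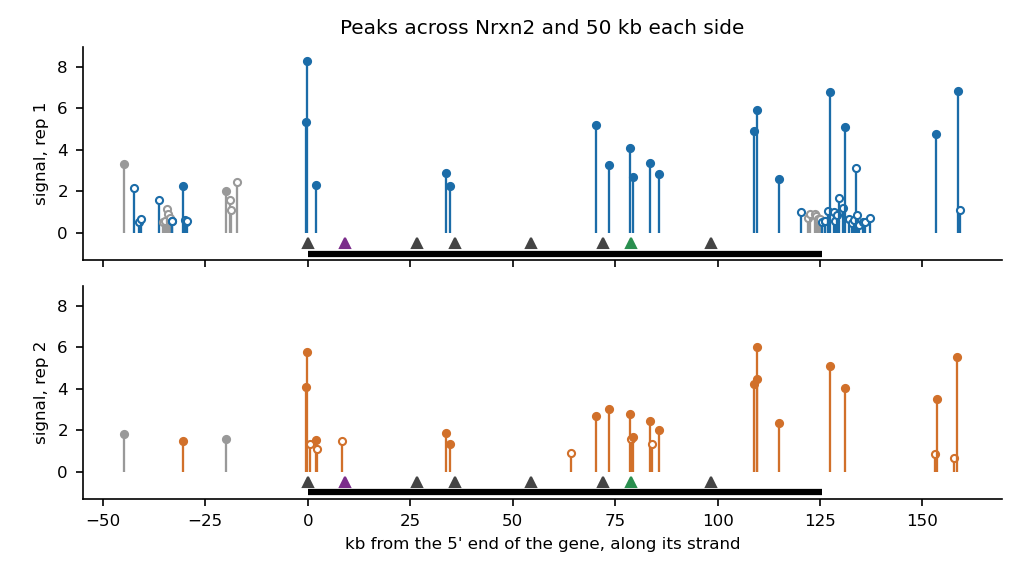
Signal of each peak (vertical axis, authors' unit) against distance from the 5′ end of Nrxn2 in kb, drawn as for Nrxn3, with grey for peaks centred within 1 kb of a start of another gene. Replicate 1 has runs of open points, peaks that it does not share, on both flanks of the gene, and the peaks with a signal above 4 are in both libraries.

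Nrxn2 lies in a crowded stretch, and its window held 64 peaks in replicate 1 and 30 in replicate 2. Of these, 21 and 22 were shared. Most of the excess lay outside the coding part of the gene. In the 50 kb upstream there were 22 peaks in replicate 1 and 5 in replicate 2, and 17 of the 22 were not in replicate 2. They included a run at starts of Pygm, the muscle glycogen phosphorylase, with signals between 0.50 and 1.16. Downstream of the last annotated coding base there were 27 and 6 peaks, and 27.7% and 9.72% of bases had a cut-rate FDR under 0.05. The 23 downstream peaks that replicate 2 lacked had a median signal of 0.66. The highest shared distal peak by the mean of both libraries, at chr19:6577181-6577420 in the downstream flank and 1.94 kb from the nearest annotated start, of AC124394.1, had a signal of 6.82 in replicate 1 and 5.51 in replicate 2 (mean 6.17 ± 0.93, SD, n = 2). Inside the gene the peak at 6527921 to 6528440 had 5.93 in replicate 1 and 5.98 in replicate 2, where it was the higher of these peaks, and the intronic peak at 6489081 had 5.20 in replicate 1 and a log2 ratio of 0.96.

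Neuroligins ranged from among the strongest starts to weak ones. Nlgn2 had a signal of 8.08 in replicate 1 and 8.17 in replicate 2 at its upstream start (position 69837784 of chromosome 11, minus strand), above 95.0% and 98.0% of peaks. Those peaks also lie at starts of Tmem256 on the other strand. Nlgn1 had its highest start signal of 1.777 and 1.504 at 26153307 of chromosome 3, 179 kb into the gene, a start that reaches the same first coding base as the others, 26133734. Its 5′-most start, at 26331870 to 26332460, had a peak of 0.51 in replicate 1, at 26331301 to 26331610, and a separate one of 0.24 in replicate 2, at 26333381 to 26333440 on the other side of the start, neither of them shared. The start placed at the first coding base had no peak and no footprint. Nlgn3 had 1.34 and 0.79 at its upstream start group, at 101299168 to 101299210 of the X chromosome.

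Male mice carry a single X chromosome. Among X-linked coding genes with a start peak, median start signal was 2.46 in replicate 1 and 1.87 in replicate 2. On autosomes it was 4.94 and 3.46. Fewer X-linked coding genes had a start peak, 44% and 43.2%, against 59.5% and 58.3% on autosomes. The cause of these differences was not tested. Nlgn3 lay below the X-linked medians in both libraries. Its strongest distal peak, in the downstream flank at chrX:101332381-101332640 and 18.1 kb from the nearest start, had 3.67 and 4.42, higher than its own start.

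The Nlgn2 upstream start is shown as the strongest neuroligin start (GRCm38, minus strand, capitals as before), with the strongest distal peak of Nlgn1, an intronic site 429 kb from the 5′ end with a signal of 4.21 in replicate 1 and 3.003 in replicate 2 (plus strand), which was above that of every Nlgn1 start.
Nlgn2 upstream start, chr11:69837785-69838034: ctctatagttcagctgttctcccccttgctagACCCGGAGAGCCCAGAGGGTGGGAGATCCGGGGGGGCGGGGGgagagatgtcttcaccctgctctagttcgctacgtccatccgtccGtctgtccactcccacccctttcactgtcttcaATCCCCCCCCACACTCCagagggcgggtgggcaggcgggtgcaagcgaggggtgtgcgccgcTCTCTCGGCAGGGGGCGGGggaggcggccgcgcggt
Nlgn1 strongest shared distal peak, chr3:25903241-25903440: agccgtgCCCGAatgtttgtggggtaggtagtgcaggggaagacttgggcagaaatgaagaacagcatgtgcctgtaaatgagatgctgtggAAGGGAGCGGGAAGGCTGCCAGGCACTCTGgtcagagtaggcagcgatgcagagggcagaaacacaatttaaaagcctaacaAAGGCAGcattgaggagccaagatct

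Footprints of both libraries covered 79 bases at the Nlgn2 start, including the letters GGGCGG, bound by SP and KLF factors, which occur in the 300 bases around 43% of coding gene starts. They covered 42 bases of the Nlgn1 peak.

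**Figure D4:**
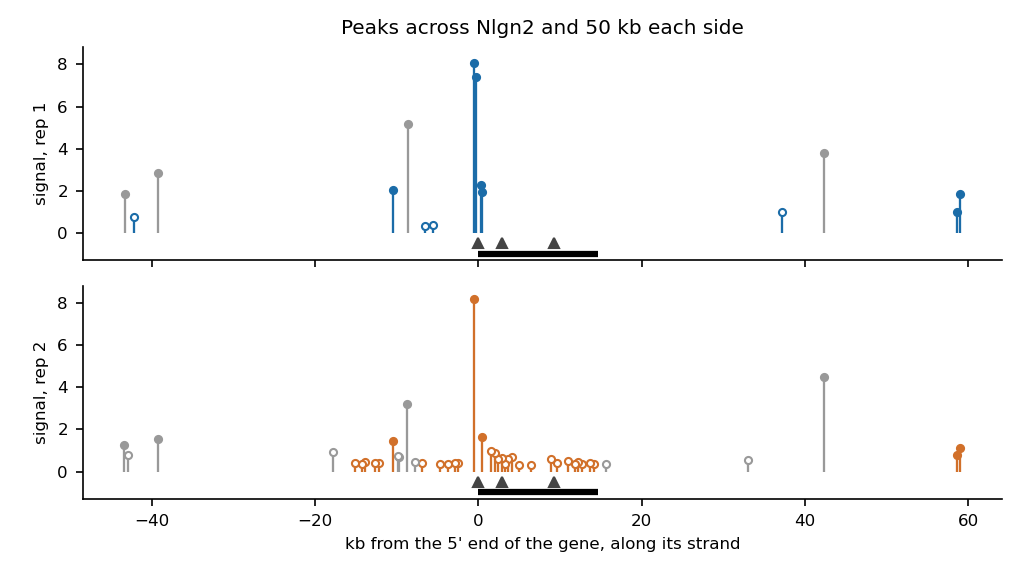
Signal of each peak (vertical axis, authors' unit) against distance from the 5′ end of Nlgn2 in kb, drawn as for the neurexins. The strong start peaks are in both libraries, and replicate 2 has a run of low open points along the gene that replicate 1 lacks.

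Across the 14.7 kb body of Nlgn2, replicate 1 had 2 peaks and replicate 2 had 18, of which 17 were not in replicate 1. These 17 had signals between 0.32 and 1.00, with a median of 0.46, and 11 of them held no footprint. Bases with a cut-rate FDR under 0.05 made up 6.002% of the body in replicate 1 and 62.8% in replicate 2. At the downstream start of the longest coding sequence, replicate 2 alone had a peak, with a signal of 0.90 and a lowest FDR of 5e-30. At a further start, of 1 non-coding transcript at 69828559, replicate 2 alone had a peak, with a signal of 0.59. The strongest shared distal peak of the window, at chr11:69848182-69848287 in the upstream flank, had 2.02 in replicate 1 and 1.45 in replicate 2. The whole window held 15 and 43 peaks, and 11 and 9 were shared. The cause of the difference was not tested.

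Latrophilins showed 1 strong start, 1 of middle strength and 1 gene with no stricter peak. Adgrl1 had a signal of 7.45 in replicate 1 and 7.44 in replicate 2 at its 5′ start group, 83900105 to 83900735 of chromosome 8, above 94.0% and 97.3% of peaks, with the peak also at a start of Gm26721. Adgrl3 had 3.79 and 2.57 at its 5′ start group, at 81020138 to 81021810 of chromosome 5, which reaches the same first coding base, 81310025, as the group with 16 coding transcripts 290 kb downstream. That downstream group had no peak in either list and no footprint. The bases before it end in a pyrimidine-rich run and AG, as before an internal exon, followed by 2 bases of an annotated Adgrl3 exon. Whether transcription begins there was not tested.

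Adgrl2 had no stricter peak in its 275 kb window in either library. Of all coding genes, 14.1% had no peak in their window, and of coding genes of at least 100 kb, 2.85%. Its window held 4 footprints in each library, 2 of them shared, and 0.154% and 0.191% of its bases had a cut-rate FDR under 0.05. Its longer, less strict lists had 2 (replicate 1) and 3 (replicate 2) peaks in the window, including a weak one near the 5′ end with a signal of 0.47 and 0.34. The ratio of observed to expected CpG at the 5′-most start was 1.18, well above the median of 0.52 over coding genes. Of coding genes with a ratio of at least 0.6 there, 89.9% had a start peak in replicate 1 and 88% in replicate 2, against 33.2% and 32.6% of the others.

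The latrophilin starts are shown for the gene with the strongest start and the gene with none (GRCm38, capitals as before).
Adgrl1 start, plus strand, chr8:83899855-83900104: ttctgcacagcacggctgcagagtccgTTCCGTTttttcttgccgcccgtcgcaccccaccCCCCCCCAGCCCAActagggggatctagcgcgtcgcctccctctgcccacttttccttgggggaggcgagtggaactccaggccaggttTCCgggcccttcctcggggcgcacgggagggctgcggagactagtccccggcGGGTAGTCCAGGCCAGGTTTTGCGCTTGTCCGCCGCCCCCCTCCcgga
Adgrl2 5′-most start, minus strand, chr3:148990556-148990805: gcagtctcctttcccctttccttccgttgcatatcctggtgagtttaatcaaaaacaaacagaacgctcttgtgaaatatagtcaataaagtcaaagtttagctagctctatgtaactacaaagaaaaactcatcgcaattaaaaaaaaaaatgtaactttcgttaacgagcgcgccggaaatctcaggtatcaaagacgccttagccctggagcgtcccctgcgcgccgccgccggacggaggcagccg

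Footprints of both libraries covered 68 bases at Adgrl1 and 0 at Adgrl2. At the strongest distal site of the Adgrl1 window, chr8:83894041-83894200 and 5.98 kb upstream of the gene, signal was 4.30 in replicate 1 and 2.47 in replicate 2. The Adgrl1 body held 12 peaks in replicate 1 and 3 in replicate 2, and 9 of the 12 were not in replicate 2. Those 9 had a median signal of 0.40. In Adgrl3, a gene of 805 kb, the strongest shared distal peak had only 0.81 and 1.20, at chr5:81156421-81156620 in an intron. A further intronic peak at 81736061 had 1.39 in replicate 1 and 2.37 in replicate 2 and lies within 1 kb of a start of Gm22048, annotated as a miRNA gene.

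Over the 45 start groups, CpG ratio was higher at open ones, with a median of 0.67 at the 11 groups open in both libraries and 0.31 at the other 34. A ratio of at least 0.6 was present at 6 of the 11 and 6 of the 34. Motif letters were searched on both strands in the 300 bases around the 11 open groups. Open here means a peak within 1 kb, which need not lie in the 300 bases. The coding gene starts set beside them include starts without a peak, so the sets are unlike. GGGCGG (SP and KLF factors) was present at 4, against 43% of the 5′-most starts of coding genes, and TTGGC (an NFI site) at 4, against 48.3%. CCAAT (NFY) was present at 3, against 39%, and CAGATG and CAGCAGG (ZIC factors) at 2 each, against 15.2% and 10.1%. The 9 other motifs searched, among them CTCF, NRF1 and CRE, had no match in these windows.

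**Figure D5:**
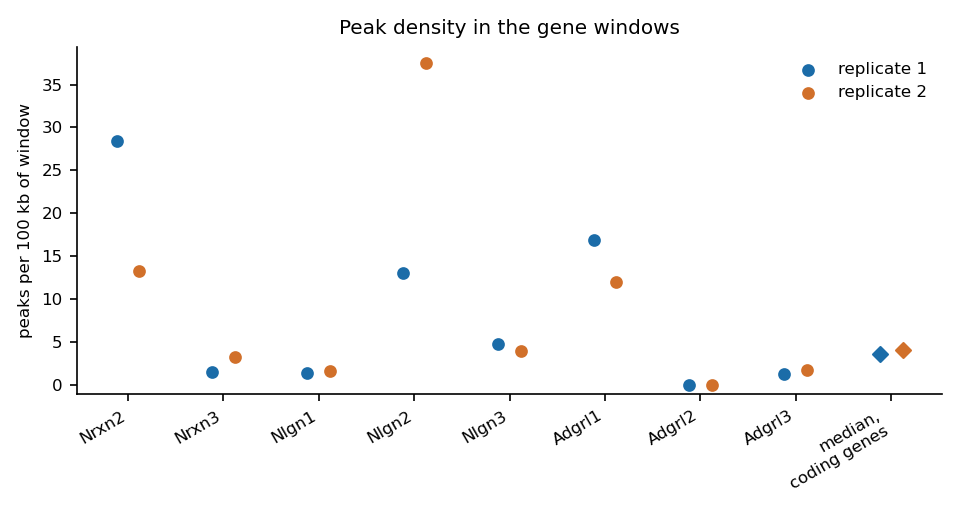
Peaks per 100 kb of window (vertical axis) for each gene, 1 point per library, with the median over all coding genes as diamonds at the right. Nrxn2, Nlgn2 and Adgrl1 lie above 10 in both libraries, and Nrxn3, Nlgn1, Adgrl2 and Adgrl3 lie below the coding gene median.

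In total the 8 windows held 161 peaks in replicate 1 and 183 in replicate 2. Of these, 97 and 93 were shared, 60.3% and 50.8%, against 76.0% and 66.1% of all peaks. The pooled shares do not hold for each gene. Few were shared in Nrxn2 in replicate 1 (21 of 64) and in Nlgn2 (9 of 43) and Nrxn3 (25 of 56) in replicate 2. In the other library, Nrxn2 shared 22 of 30, Nlgn2 11 of 15 and Nrxn3 25 of 26. Median density was 3.13 and 3.61 peaks per 100 kb of window, against 3.59 and 4.05 over all coding genes and 2.35 and 3.08 over those of at least 100 kb. Nrxn2, with 28.4 and 13.3, Nlgn2, with 13.1 and 37.5, and Adgrl1, with 16.9 and 11.98, were densest. Nlgn3 had 4.73 and 3.94 and Nrxn3 had 1.52 and 3.27. Nlgn1 had 1.39 and 1.59 peaks per 100 kb and Adgrl3 had 1.33 and 1.77. Distal peaks were 63.4% and 68.9% of peaks in the windows, against 57.3% and 61.9% of all peaks. Peaks at starts of other genes numbered 31 and 20.

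There were 833 footprints in the windows in replicate 1 and 871 in replicate 2, and their median length was 10 bp in each library. Shared footprints made up 45.6% and 43.6%, against 51.0% and 50.6% of all footprints. Footprints inside a peak made up 62.4% and 58.0%, against 64.1% and 66.7% of all footprints. Peaks of the windows with no footprint were 9.94% in replicate 1 and 20.8% in replicate 2, against 11.7% and 15.9% of all peaks.

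Other genes of the pathway were described by start peaks. Of 23 ligands and receptors across the cleft, 13 had a start peak in both libraries, 17 in replicate 1 and 14 in replicate 2. Dag1, which encodes the neurexin ligand dystroglycan, had the highest signal of the list, 11.4 and 7.71, and Clstn3, a calsyntenin, had 8.27 and 7.16. The latrophilin partners Flrt3, with 4.58 and 5.87, and Tenm2, with 1.60 and 1.22, had a peak in both libraries, and Flrt1 had none. No start peak was found at C1ql1, C1ql2 or C1ql3. Of 18 other synaptic organisers, 13 had a peak in both libraries, 14 in replicate 1 and 15 in replicate 2. Ptprs, a receptor phosphatase of the presynaptic side, had 8.85 and 6.61. Of 11 intracellular partners, 10 had a peak in both libraries, all but Sytl1, and the scaffold gene Cask had 4.13 and 2.93. Gphn, which encodes the gephyrin scaffold bound by Nlgn2, had 4.55 and 3.78. These shares stand beside 58.4% and 57.2% of coding genes with a start peak.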

How the data were processed

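DNase-seq was measured in 2 libraries of mouse cerebellum, replicates 1 and 2 of the labels. The assembly was mm10, per the labels, and each deposited file holds 1 library. The authors deposited 2 peak lists with a signal value per peak, a coverage measure of unstated scale, a list of intervals with the FDR (an adjusted p-value) of the cut rate under 0.05, and a footprint list whose only value is the threshold 0.01. No aligner, peak caller or depth is stated in the labels or files used. Reads of the CAST allele were not resolved.

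The stricter peak list, with a base of FDR under 0.001 in all its peaks, was the main one. Peaks were counted as deposited, also where they overlapped in 1 list. Starts came from GENCODE mouse release M21 and sequence from GRCm38.p6, and no interval lay past a chromosome end. Windows were gene bodies with 50 kb each side, and peaks or footprints were shared if they overlapped by at least 1 bp. The alpha start was that of the coding transcript with the longest coding sequence, and the beta start was in the last 40% of the gene. Every member was named, with the strongest peak at each start and the strongest shared distal peak. The functions were tested on simulated data. Python 3.11.15, numpy 2.4.6 and bedtools 2.31.1 were used. The members, lists, motifs and alternatives were chosen with earlier results of these data known.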

Additional observations from a re-analysis of the deposited data

How the results depend on the processing

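With a median-signal minimum, 6 genes had a start peak in both libraries, against 8 with the longer list and 7 with a start distance of 0.5 or 2 kb. Mean peak totals of 172 became 290.5 with the longer list, 76.5 with the median-signal minimum and 106 for the gene bodies alone. Mean shared totals of 95 became 167, 61 and 62.5 under the same settings. Mean footprints of 852 became 480.5 for the bodies alone and 512.5 for those inside a peak. Median density of 3.37 peaks per 100 kb became 7.91 with the longer list, 2.17 with the median-signal minimum, 4.16 with a flank of 25 kb, 3.75 with a flank of 100 kb and 2.58 without peaks at starts of other genes. The cause was not tested. Leaving out each library gave 161 to 183 peaks, 833 to 871 footprints and a density of 3.13 to 3.61. No paired analysis was possible because there is 1 group. The authors' signal has no stated scale, and 2 libraries limit what the spread can show.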
